A study of Homo sapiens and Mus musculus with 54 samples.

Results

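The bile acid synthesis and transport genes are 10 human genes chosen by name, out of 19970 that code for proteins (chromosomes 1 to 22 and X). They are CYP7A1, CYP8B1, CYP27A1 and CYP7B1 for the enzymes of synthesis, SLC27A5 and BAAT for conjugation, and SLC10A1, ABCB11, ABCC2 and SLC51A for transport. Every entry of the 4 HepG2 ChIP-seq peak lists that lay within 50 kb of one of the 10 gene bodies was taken, which gave 71 of 56739 AhR peaks, 87 of 62761 C/EBPα peaks, 117 of 97145 regions of one H3K27ac list and 126 of 106666 regions of the other. The aryl hydrocarbon receptor (AhR) is a ligand-activated transcription factor, C/EBPα is a liver-enriched transcription factor, and H3K27ac is a histone acetylation found at active regulatory DNA.

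The series asked how vitamin B2 supply acts through AhR in liver cells. HepG2 is a human liver cancer line, and its 30 libraries were all taken at day 12. AhR and C/EBPα were each profiled in 2 B2-deficient (B2_minus) and 2 control libraries, and H3K27ac in 5 B2_minus and 5 control libraries. A further H3K27ac experiment had 2 B2_minus libraries with an AhR inhibitor (AhRinh), 2 B2_minus libraries with DMSO and 2 control libraries with DMSO, and 6 inputs completed the set. Each deposited list is named for an experiment rather than a condition, and gives positions with no value for a library. No difference between B2_minus and control cells, or between inhibitor and DMSO, was measured for any gene, and the depth of the libraries is unknown. The H3K27ac list of the inhibitor experiment is called the inhibitor list and the other the untreated list. Peak names end in a number, here called the merge number and read as how many peaks were joined in that entry. The sources used here do not state which libraries those peaks came from.

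Bile acids are made from cholesterol in hepatocytes. The classical pathway starts with CYP7A1, the alternative pathway with the mitochondrial enzyme CYP27A1 followed by CYP7B1, and CYP8B1 directs the product towards cholic acid. SLC27A5 activates bile acids to their CoA esters and BAAT joins them to glycine or taurine. SLC10A1 (NTCP) takes bile acids up from blood, ABCB11 (BSEP) and ABCC2 (MRP2) export them and other conjugates into bile, and SLC51A is a subunit of the exporter at the blood-facing membrane.

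AhR peaks lay within 1 kb of a gene end, either the start or the far end, at most of these genes. An AhR peak lay within 1 kb of a gene end at 6 of the 10 genes, CYP7A1, CYP8B1, CYP27A1, BAAT, ABCC2 and SLC10A1, where 18.4% of all protein-coding genes had one. A C/EBPα peak did so at 7 of the 10, CYP7A1, CYP8B1, CYP27A1, SLC27A5, ABCB11, ABCC2 and SLC10A1, beside 24.8% of all genes. At SLC27A5 this peak lay at the end away from the start, centred 12539 bp past the start. An H3K27ac region lay within 1 kb of a gene end at 3 of the 10 in the inhibitor list and 3 of the 10 in the untreated list. The shares of all genes were 14.5% and 15.2%. The genes were CYP27A1, BAAT and SLC27A5 in both lists, each at the end away from its start. Both H3K27ac lists hold few regions near start sites, as described below. No test was made against the other genes.

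At CYP7A1, the rate-limiting enzyme of the classical pathway (gene ID 1581, chromosome 8, 58490178 to 58500163), an AhR peak with merge number 2 lay at 58500180 to 58500418, 17 bp beyond the upper gene end. A C/EBPα peak with merge number 3 lay at 58500212 to 58500442, and the centres were 28 bp apart. At CYP8B1 (gene ID 1582, chromosome 3, 42872192 to 42875879) an AhR peak with merge number 2 spanned the upper gene end at 42875821 to 42876049, with a C/EBPα peak centred 8 bp away. At ABCC2 (gene ID 1244, chromosome 10, 99782640 to 99852594) an AhR peak at 99782476 to 99782694, with merge number 2, was centred 55 bp before the RefSeq start site. At SLC10A1 (gene ID 6554, chromosome 14, 69775416 to 69797241) the AhR peak at 69797204 to 69797417, with merge number 1, was centred 69.5 bp before it. The nearest C/EBPα centre was 15.5 bp away at ABCC2 and 17 bp away at SLC10A1, and both of those C/EBPα peaks had merge number 3. The AhR peak thus lay across a gene end at CYP8B1, ABCC2 and SLC10A1 and just beyond it at CYP7A1, and overlapped a C/EBPα peak at each. Other AhR peaks centred within 1 kb of a gene end overlapped none. They were a second peak of ABCC2, centred 638 bp before its start, and the peak beyond the lower end of BAAT. In the whole list, 42.8% of the 3690 AhR peaks centred within 1 kb of a protein-coding gene end overlapped a C/EBPα peak.

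The other genes differed at their starts. At CYP27A1 (gene ID 1593, chromosome 2, 218782147 to 218815293) a wide AhR peak of 463 bp, at 218780900 to 218781362, was centred 1016 bp before the start site and overlapped a C/EBPα peak. Another C/EBPα peak, centred at -255.5 bp from the start, overlapped no AhR peak. At SLC51A (gene ID 200931, chromosome 3, 196216534 to 196233427) the nearest AhR peak, at 196214982 to 196215211, was centred 1437.5 bp before the start and 19.5 bp from a C/EBPα centre. At SLC27A5 (gene ID 10998, chromosome 19, 58498333 to 58511992) the only AhR peaks were a pair inside the gene, at 58510082 to 58510369 and 58510531 to 58510769, centred 1766.5 and 1342 bp past the start. The one nearer the start overlapped a C/EBPα peak. ABCB11 (gene ID 8647, chromosome 2, 168915390 to 169031324) had a C/EBPα peak across its start, at 169031211 to 169031458, while its nearest AhR peak was centred 12706.5 bp inside the gene. BAAT (gene ID 570, chromosome 9, 101360417 to 101385006) had an AhR peak 410 bp beyond its lower end, at 101359774 to 101360007. BAAT is on the minus strand, so this is the end away from its start, and the peak was centred 23673.5 bp past the start. The AhR peak of BAAT nearest to the RefSeq start, at 101388788 to 101389023, was centred 5032.5 bp before it and overlapped a C/EBPα peak.

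**Figure D1:**
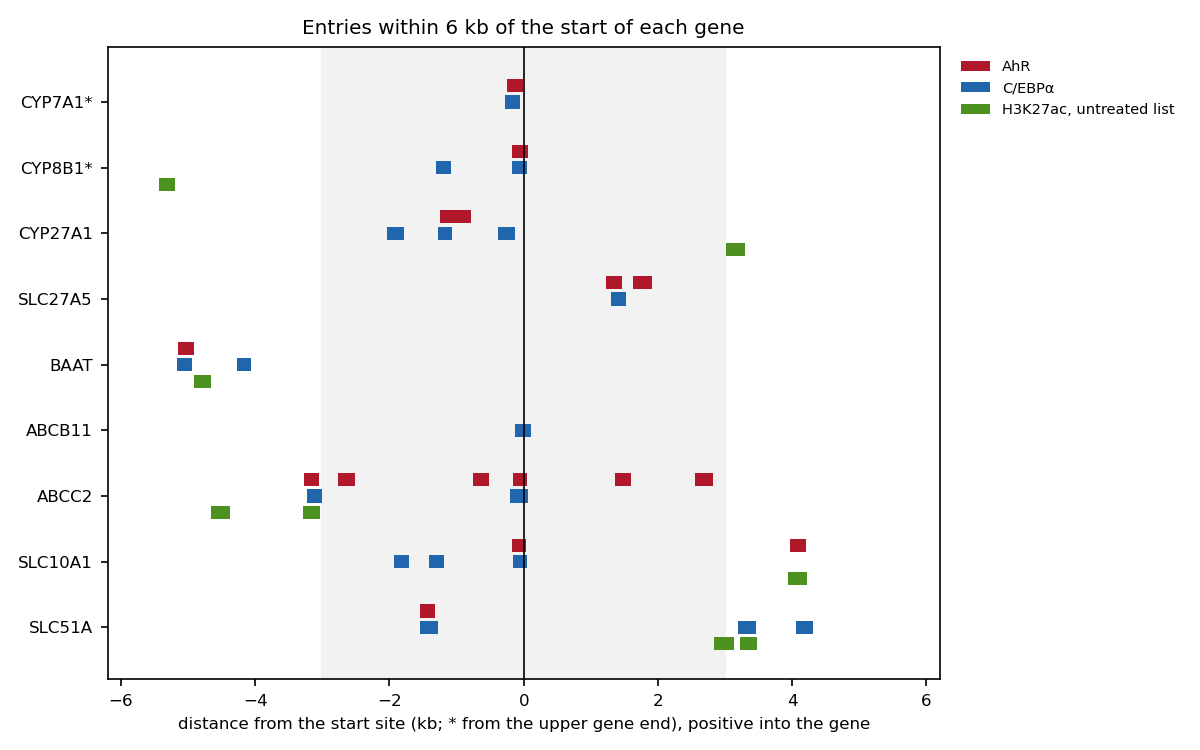
AhR peaks, C/EBPα peaks and H3K27ac regions of the untreated list within 6 kb of the start of the 9 genes that had entries. The x axis is the distance in kb from the RefSeq start site, or, for genes marked with an asterisk, from the upper gene end, and the grey band marks 3 kb to each side. AhR and C/EBPα bars coincide at the starts of CYP7A1, CYP8B1, ABCC2 and SLC10A1, and ABCB11 has a C/EBPα bar alone.

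RefSeq promoter windows (GRCh38.p14, 250 bases before to 50 bases after a start) matched 7 of the 10 genes in 8 windows. No window was used for CYP7A1, CYP8B1 or CYP7B1, so the AhR peaks at the gene ends of CYP7A1 and CYP8B1 are outside the window and motif counts. AhR peaks overlapped a window of 2 of the 7 matched genes and C/EBPα peaks a window of 4, beside 6.28% and 8.40% of all 35116 windows. Here and for the C/EBP letters below, the counts are of genes and the shares of windows, so the units differ. The 250 bases before the start are shown for those 4 genes because a deposited peak covers part of each. In ABCC2 and SLC10A1 the capitals mark bases inside both the AhR and the C/EBPα peak, and in ABCB11 and CYP27A1 bases inside the C/EBPα peak. The windows are chr10:99782390-99782639 (plus strand), chr14:69797242-69797491 (minus), chr2:169031325-169031574 (minus) and chr2:218781897-218782146 (plus).
ABCC2: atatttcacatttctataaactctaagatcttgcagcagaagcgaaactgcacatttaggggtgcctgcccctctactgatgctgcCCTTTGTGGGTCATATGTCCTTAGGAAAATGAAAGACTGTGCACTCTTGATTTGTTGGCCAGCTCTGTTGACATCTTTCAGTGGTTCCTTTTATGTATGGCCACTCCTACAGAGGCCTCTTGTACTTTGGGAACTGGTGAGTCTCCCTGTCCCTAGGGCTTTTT
SLC10A1: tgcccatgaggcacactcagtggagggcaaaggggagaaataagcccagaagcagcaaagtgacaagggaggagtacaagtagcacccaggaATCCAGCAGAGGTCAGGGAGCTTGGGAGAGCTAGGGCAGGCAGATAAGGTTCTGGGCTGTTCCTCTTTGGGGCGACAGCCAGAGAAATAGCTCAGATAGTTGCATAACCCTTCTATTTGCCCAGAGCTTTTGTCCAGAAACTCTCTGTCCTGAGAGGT
ABCB11: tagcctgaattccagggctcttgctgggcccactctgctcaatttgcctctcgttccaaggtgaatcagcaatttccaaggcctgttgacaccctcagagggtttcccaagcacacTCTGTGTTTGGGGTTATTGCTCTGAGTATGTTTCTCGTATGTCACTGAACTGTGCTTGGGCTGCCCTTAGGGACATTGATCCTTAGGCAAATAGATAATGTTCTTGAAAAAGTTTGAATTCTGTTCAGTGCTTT
CYP27A1: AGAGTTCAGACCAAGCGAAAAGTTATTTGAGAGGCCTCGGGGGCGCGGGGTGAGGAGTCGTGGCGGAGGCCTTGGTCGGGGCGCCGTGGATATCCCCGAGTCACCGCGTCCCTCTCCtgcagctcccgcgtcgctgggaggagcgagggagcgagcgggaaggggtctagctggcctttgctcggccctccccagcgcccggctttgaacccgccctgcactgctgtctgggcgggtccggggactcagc
The letters GCGTG, the core of the AhR element, were searched on both strands and were in none of the 8 windows. They were in 36.5% of all windows and in 46.1% of the 2205 windows that an AhR peak overlapped. The C/EBP letters TTNNGCAA were in the windows of 2 genes, ABCB11 and SLC10A1, beside 10.5% of all windows and 21.0% of those with a C/EBPα peak. The match in ABCB11 was TTAGGCAA, starting 52 bases before the start site, and that in SLC10A1 was TTGCATAA, the other strand of the motif, starting 59 bases before it. Both fall among the capitals. The letters TCAAGGTCA (NR5A2) and CAAAGTCCA (HNF4A) and an inverted-repeat motif of NR1H4 were also searched on both strands, and none was in any of the 8 windows. They were in 0.353%, 0.384% and 0% of all windows. A match describes letters and not a bound site.

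Both H3K27ac lists held few regions near start sites, so a missing region there is not read as absence of the mark. In the inhibitor and untreated lists the number of regions was 6.29 and 6.47 times as large from 3000 to 3500 bp as from 2500 to 3000 bp of the nearest protein-coding start, 1365 against 217 and 1463 against 226 regions. The same ratio was 0.954 for AhR and 0.892 for C/EBPα. Of the AhR peaks of the bile acid genes centred within 3 kb of a protein-coding start, 0 of 10 overlapped a region of the untreated list (95% Wilson interval 0 to 27.8%), beside 5.71% of such peaks in the whole list. Beyond 3 kb it was 47 of 56, or 83.9% (72.2 to 91.3), beside 77.8% in the whole list. No start sites of chromosome 8 were used, so CYP7A1 is not in these counts. No start site of CYP8B1 was used either, so the AhR peak across its upper end, which overlapped no H3K27ac region, is among the 56 by its distance to other genes' starts. Without that peak the count was 47 of 55, or 85.5% (73.8 to 92.4). What made the step was not tested.

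**Figure D2:**
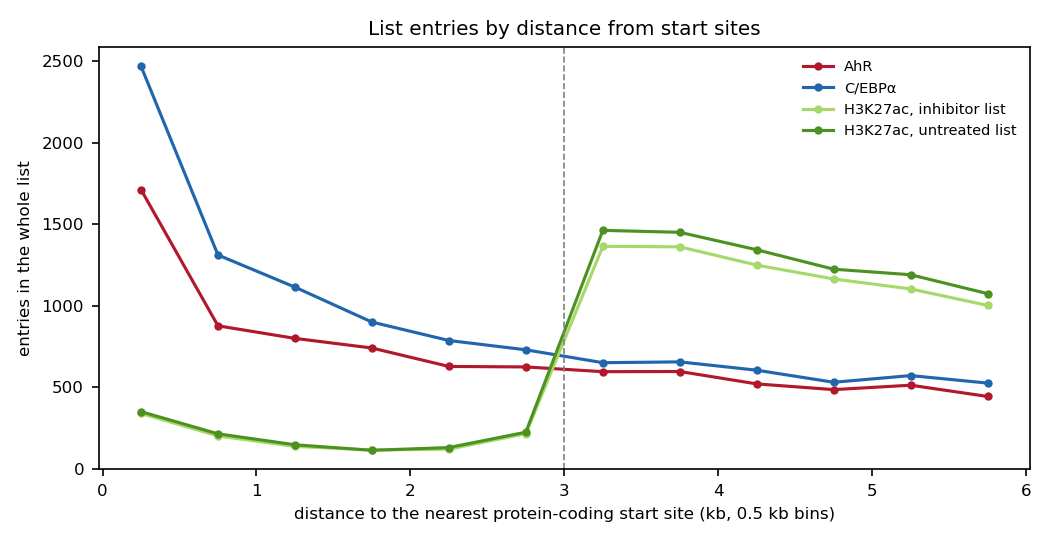
Number of entries of each whole list, on the y axis, by distance in kb to the nearest protein-coding start site, on the x axis, in bins of 0.5 kb. Both H3K27ac lists step up at the dashed line at 3 kb, from 217 to 1365 regions in the inhibitor list and from 226 to 1463 in the untreated list, while the AhR and C/EBPα lines do not.

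Over the full window of 50 kb, 9 of the 10 genes had an AhR peak, 9 a C/EBPα peak, and 9 a region in each H3K27ac list. These counts say little about the genes, since 85.4%, 88.6%, 88.1% (inhibitor list) and 90.4% (untreated list) of all protein-coding genes had one. Within 10 kb, 9 of 10 had an entry in each list, beside 64.6% of all genes for AhR, 70.8% for C/EBPα, 70.0% for the inhibitor list and 72.9% for the untreated list. Counting an entry for its nearest gene alone also left 9 of 10, beside 60.3%, 65.6%, 65.9% and 68.7% in the same order. With merge numbers of 2 or more it was 9 of 10 again, beside 66.3%, 80.4%, 86.1% and 88.2%. The gene missing from every one of these counts was CYP7B1. Entries overlapped the gene body itself at 8 genes for AhR, 8 for C/EBPα and 7 for each H3K27ac list, beside 47.0%, 51.4%, 49.9% and 51.8%. The median number of AhR peaks was 8 over the 10 genes and 4 over all genes. For C/EBPα the medians were 8.5 and 4, for the inhibitor list 12.5 and 6, and for the untreated list 14 and 7. Per 100 kb of window, the median was 6.29 AhR peaks over the 10 genes and 2.58 over all genes. Windows held other genes too: the bile acid gene was the nearest protein-coding gene for 32 of the 71 AhR peaks.

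**Figure D3:**
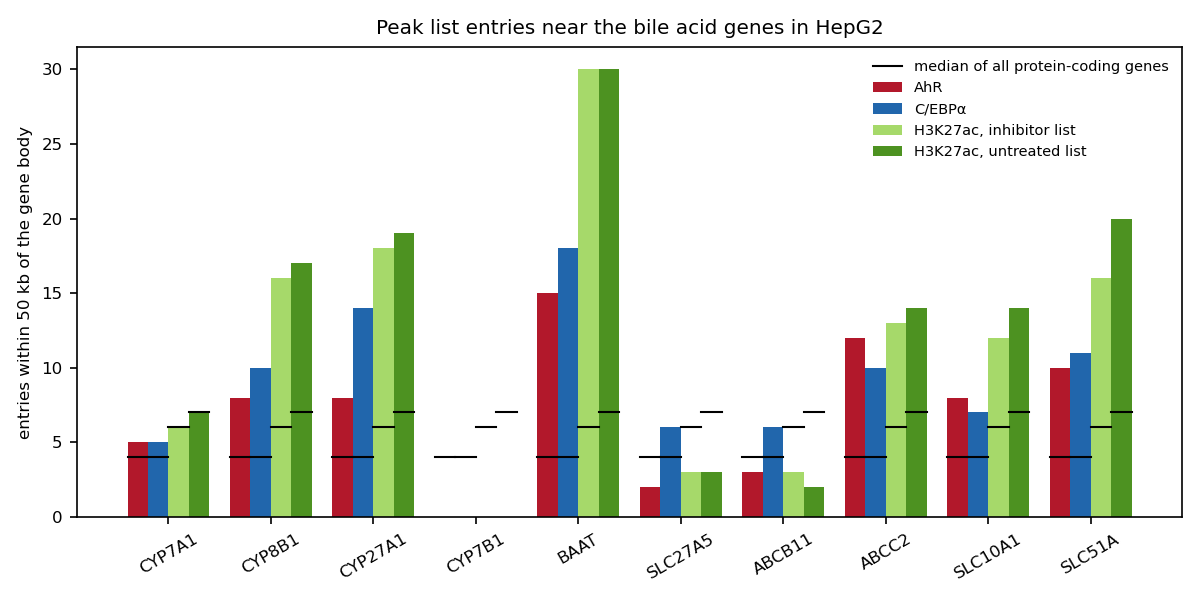
Entries within 50 kb of each gene body, on the y axis, for the 10 genes on the x axis, with 1 bar for each list and a black line at the median of all protein-coding genes. BAAT has the tallest bars, with 15 AhR peaks, CYP7B1 has none in any list, and SLC27A5 and ABCB11 stay below the line for AhR and H3K27ac.

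Among the synthesis genes, CYP8B1 and CYP27A1 had 8 AhR peaks each and CYP7A1 had 5. At least as many were held by 21.2% and 41.9% of all genes. Of the AhR peaks of CYP7A1, 4 formed a group from 9.51 to 18.7 kb below the gene, where 3 overlapped C/EBPα and H3K27ac together. Those 3 lay at 58471231 to 58471449, 58477981 to 58478209 and 58480445 to 58480669, with C/EBPα centres 13, 10.5 and 19.5 bp away. The fourth of the group, at 58479273 to 58479544, overlapped an H3K27ac region alone. CYP7A1 was the nearest gene of all 5 of its AhR peaks.

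The windows of CYP8B1 and CYP27A1 were shared with other genes. For CYP8B1 the nearest gene was ACKR2, a chemokine receptor gene, for 6 of 8 AhR peaks, and CYP8B1 itself for the peak across its end. The peaks with both partners lay 16.5 to 49.1 kb from CYP8B1. For CYP27A1 the nearest gene was TTLL4 for 6 of 8 AhR peaks. The AhR peak inside CYP27A1, at 218806413 to 218806659, overlapped a C/EBPα peak with its centre 9.5 bp away and an H3K27ac region. All 8 AhR peaks of CYP27A1 had merge number 2.

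CYP7B1, which acts after CYP27A1 in the alternative pathway (gene ID 9420, chromosome 8, 64586575 to 64798737), had no entry in any of the 4 lists. Its gene body of 212 kb gave the longest window of the 10. The nearest AhR peak lay 68.9 kb below the gene, at 64517436 to 64517663, and the nearest C/EBPα peak lay 68.8 kb below it. Of all protein-coding genes, 2924 had no AhR peak within 50 kb.

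**Figure D4:**
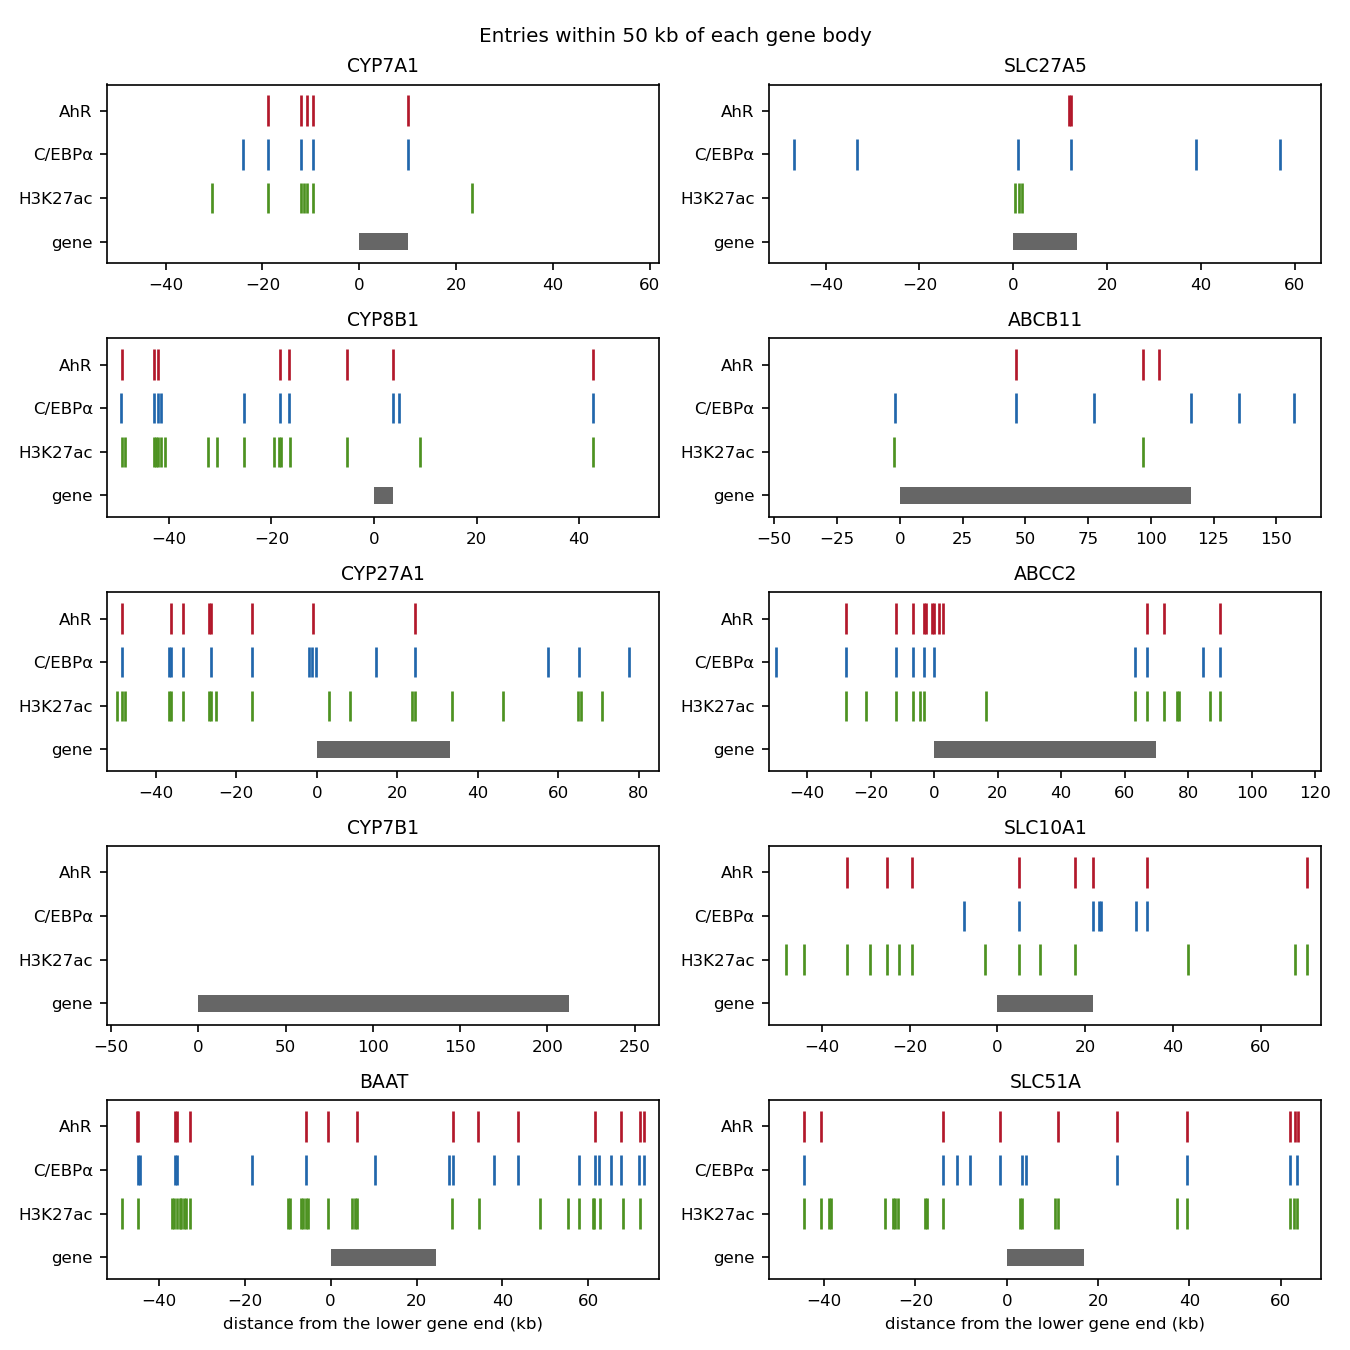
Positions of AhR peaks, C/EBPα peaks and H3K27ac regions of the untreated list, as vertical ticks, around each of the 10 gene bodies, drawn as grey bars. The x axis is the distance in kb from the lower gene end and its length differs between panels. CYP7B1 is empty, CYP7A1 has its AhR ticks below the gene and at its upper end, and those of ABCC2 gather round its lower end, where the gene starts.

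The conjugation genes differed widely in their number of AhR peaks. BAAT had 15 AhR peaks, 18 C/EBPα peaks and 30 regions in each H3K27ac list. Only 4.22% of all genes had as many AhR peaks. BAAT was the nearest gene of 3 of the 15. Of the rest, 5 lay nearest to PLPPR1. Of the 3 peaks nearest to BAAT, 1 overlapped both partners, at 101354532 to 101354746, 5.67 kb below the gene. The other 2, at 101359774 to 101360007 and inside the gene at 101366265 to 101366639, overlapped H3K27ac alone. The 6 remaining peaks with both partners lay 35.7 to 47.3 kb from BAAT.
SLC27A5 had 2 AhR peaks, 6 C/EBPα peaks and 3 regions in each H3K27ac list. At least as many AhR peaks were held by 73.2% of all genes. None of its AhR peaks overlapped an H3K27ac region, and both lie within 3 kb of its start, where these lists hold few regions. Of its 3 H3K27ac regions, 1 lay across the lower gene end and 2 inside the gene near that end, 1 of these with a C/EBPα peak.

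Of the canalicular exporters, ABCC2 had 12 AhR peaks and ABCB11 had 3. For ABCC2, 10 of the 12 had it as the nearest gene, and 5 were centred within 3 kb of its start, at -2640, -638, -55, 1479 and 2682.5 bp. Of those 5, only the one at the start itself overlapped a C/EBPα peak and had merge number 2. The other 4 had merge number 1. They overlapped neither partner, and make up 4 of the 6 AhR peaks of all 10 genes that did so. All 4 lay within 3 kb of the start, where the H3K27ac lists hold few regions. Whether they lack H3K27ac is therefore not known. Another 6 AhR peaks of ABCC2 overlapped both partners. Of these, 4 lay 3.05, 6.45, 11.9 and 27.7 kb before the gene, 1 inside it at 99849538 to 99849781, and 1 lay 19.9 kb beyond it.
ABCB11, the main bile salt export pump, had all 3 AhR peaks inside its gene body of 116 kb, which came to 1.39 peaks per 100 kb of window. None overlapped C/EBPα and the untreated H3K27ac list together. The peak at 168961750 to 168961984, with merge number 2, was centred 0.5 bp from a C/EBPα centre. The inhibitor list had a region there, at 168961666 to 168961990, that the untreated list did not have. The peak at 169012224 to 169012446 overlapped H3K27ac alone, and that at 169018509 to 169018726 overlapped neither.

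The membrane carriers facing blood also differed from each other. SLC10A1, the uptake carrier, had 8 AhR peaks, of which 5 overlapped H3K27ac alone, 2 C/EBPα alone and 1 both. The peak with both lay inside the gene at 69780155 to 69780418. The AhR peak at 69793032 to 69793277, centred 4086.5 bp past the start, overlapped an H3K27ac region and no C/EBPα peak. SLC51A had 10 AhR peaks, of which 5 overlapped both partners, and SLC51A was the nearest gene of 2. The AhR peak inside SLC51A, at 196227700 to 196227934, overlapped H3K27ac alone. The peaks with both lay 13.7 to 46.7 kb from the gene, nearer to ZDHHC19 or PCYT1A.

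Together, 48 of the 71 AhR peaks overlapped a C/EBPα peak, 67.6% (95% Wilson interval 56.1 to 77.3), beside 55.3% of the whole AhR list. An H3K27ac region of the untreated list overlapped 51, or 71.8% (60.5 to 81.0), beside 70.7%. Both partners were present at 34, or 47.9% (36.7 to 59.3), beside 41.1%, and the interval includes that share. These shares depended on the window. Of the 31 AhR peaks within 10 kb, 54.8% overlapped C/EBPα, close to the whole list's 55.3%. H3K27ac overlapped 48.4% and both partners 22.6%, below the whole list's 70.7% and 41.1%. The H3K27ac lists hold few regions within 3 kb of start sites. Of the 56 AhR peaks centred beyond 3 kb of start sites, chromosome 8 left out, 83.9% overlapped H3K27ac, beside 77.8% in the whole list. A stricter set was the 47 AhR peaks beyond 3 kb of gene ends, starts and far ends alike. Of these, 87.2% overlapped H3K27ac and 70.2% C/EBPα, beside 77.5% and 56.3% in the whole list. Why the shares differed between these sets was not tested. Of the 32 peaks whose nearest gene was the bile acid gene, 59.4% overlapped C/EBPα, 53.1% H3K27ac and 31.2% both. An AhR peak with C/EBPα was found at 9 of the 10 genes, where 73.5% of all genes had one, and a peak with both at 7 (all but CYP7B1, SLC27A5 and ABCB11), where 62.2% had one. Merge numbers of 2 or more were held by 42 of the 71, or 59.2% (47.5 to 69.8), beside 42.3% of the whole list. Merged peaks overlapped C/EBPα in 33 of 42 cases (78.6%), beside 73.2% of merged peaks in the whole list, and single ones in 15 of 29 (51.7%), beside 42.3%, so the whole list showed the same order. The intervals cover counting over peaks only, and neighbouring peaks are not independent. No test was made between these peaks and the list.

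**Figure D5:**
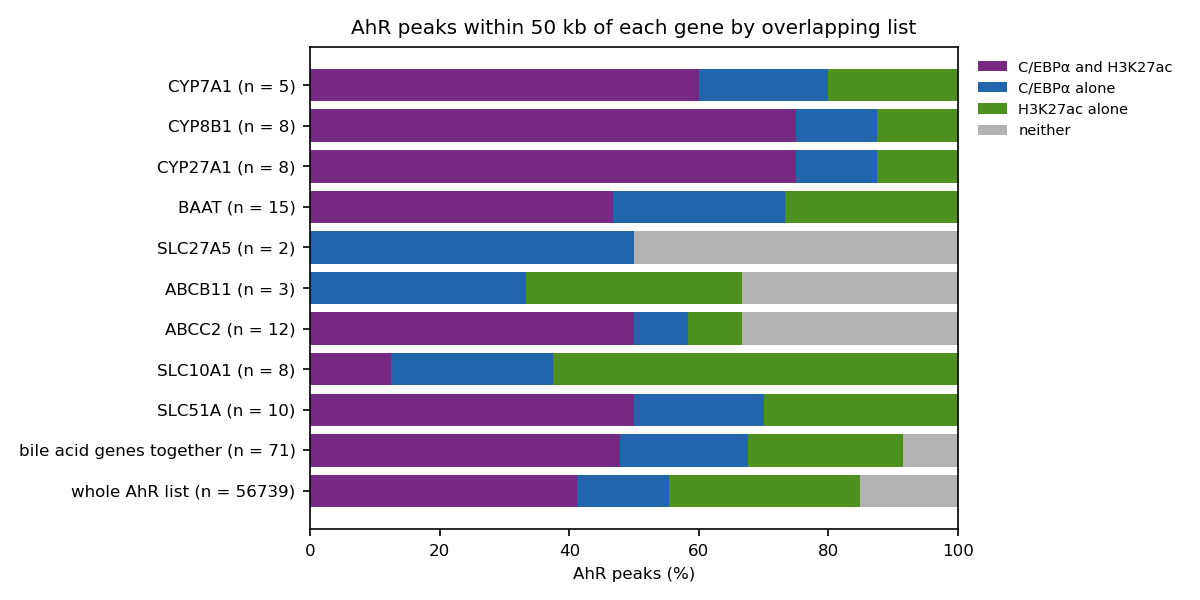
Share of AhR peaks, in percent on the x axis, that overlapped a C/EBPα peak and an untreated H3K27ac region, either one alone, or neither, for each of the 9 genes with AhR peaks, for these genes together and for the whole list. Both partners were present at 6 of 8 peaks of CYP8B1 and of CYP27A1 and at 1 of 8 of SLC10A1.

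Where AhR and C/EBPα peaks overlapped, their centres lay a median of 18.8 bp apart near the bile acid genes, with 40 of 48 within 50 bp. The whole list had a median of 21.5 bp. Read from C/EBPα, 47 of the 87 peaks held an AhR peak, 54.0% (95% Wilson interval 43.6 to 64.1), beside 50.1% of its whole list. This was 26 of 34 for merge number 3 (76.5%), beside 76.7% in the whole list, and 7 of 29 for merge number 1 (24.1%), beside 27.7%. C/EBPα peaks without an AhR peak were most numerous at BAAT (8) and CYP27A1 (7), and made up 5 of 6 at SLC27A5 and at ABCB11.

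H3K27ac regions near the genes were nearly the same in both lists. Of the 117 regions of the inhibitor list, 115 had identical coordinates in the untreated list, 98.3%, beside 95.9% of the whole list. Of the 126 regions of the untreated list, the same 115 make up 91.3% (95% Wilson interval 85.0 to 95.1), beside 87.4%. Counting any overlap of at least 1 bp also gave 115, so a region here was either identical in the other list or absent from it. Whether both lists were drawn from a shared set of regions is not stated. They are therefore not taken as independent, and their likeness is not a replication. The 2 regions in the inhibitor list alone lay inside ABCB11 and 22.3 kb below SLC51A. The 11 in the untreated list alone were spread over SLC51A (5), SLC10A1 (2), CYP7A1, CYP8B1, CYP27A1 and ABCC2 (1 each). Of these 11, 2 overlapped an AhR peak and a C/EBPα peak, at 196172059 to 196172352, 44.2 kb below SLC51A, and at 42914806 to 42915079, 38.9 kb above CYP8B1. At BAAT and SLC27A5 the lists did not differ. The lists do not separate inhibitor from DMSO libraries, so these counts do not compare inhibitor with DMSO.

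A wider set of 42 other genes of bile acid sensing, synthesis, conjugation and transport, all found in the gene table, was read the same way. An AhR peak lay within 50 kb of 41, a C/EBPα peak of 42, and a region of each H3K27ac list of 40, beside 85.4%, 88.6%, 88.1% (inhibitor list) and 90.4% (untreated list) of all genes. An AhR peak lay within 1 kb of a gene end at 19 of the 42, beside 18.4% of all genes. The most AhR peaks were at ABCC3 (21), an export pump of the blood-facing membrane, ABCD3 (19), a peroxisomal transporter, AKR1D1 (19), a reductase of bile acid synthesis, and HNF4A (18), a liver transcription factor. SLC10A2, the bile acid carrier of the intestine, was the only one of the 42 with no AhR peak, and had 1 C/EBPα peak and 1 region in each H3K27ac list. All 6 hepatocyte markers (ALB, APOA1, TF, SERPINA1, TTR and FGB) had regions in the untreated list, from 10 to 61 with a median of 29.5. Of the markers of other liver cells, 5 of 6 stellate (0 to 21, median 7), 5 of 6 endothelial (0 to 41, median 13.5), 6 of 6 macrophage (1 to 20, median 3.5) and 6 of 6 cholangiocyte markers (2 to 16, median 6.5) had regions too, so their ranges overlap that of the hepatocyte markers. DCN and KDR were at 0.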

How the data were processed

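ChIP-seq peak lists of 30 HepG2 libraries were read. The authors deposited lists of 5 columns with positions in hg38 and no other value, and other columns are a name, a chromosome and a strand sign. Per the submitters' processing notes, Bowtie2 and HOMER were used, with no version stated. AhR and C/EBPα chromatin was crosslinked with DSG and formaldehyde, H3K27ac chromatin with formaldehyde alone, per the labels' protocols. The 2 mouse lists were not used here. The members and gene lists were chosen with earlier results of these data known. Genes came from RefSeq GRCh38.p14. Entries counted for each gene body within 50 kb, overlap meant at least 1 bp, and "both" means a C/EBPα peak and a region of the untreated H3K27ac list. Single peaks are named where they overlapped both, lay within 1 kb of a gene end, or were a gene's only AhR peak, and the 4 other pathway genes with most AhR peaks are named. Other peaks, and SLC10A2, were named after their values were seen. Positions without values per library allow no test of conditions, so no p-value is given. Wilson intervals are at 95%. The counting routines gave the planted answer for all 200 genes of a simulation. Tables were handled with pandas 2.3.3 under Python 3.11.15, intervals came from SciPy 1.17.1, and arrays and plots from NumPy 2.4.6 and Matplotlib 3.10.9.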

Additional observations from a re-analysis of the deposited data

How the results depend on the processing

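No paired analysis was possible because the lists hold no value per library, and no replicate could be left out for the same reason. The number of the 10 genes with an AhR or C/EBPα peak stayed at 9 in the 10 kb window, by nearest gene and with merged peaks only, and was 6 and 7 within 1 kb of a gene end. That last setting, peaks nearest to the member, peaks beyond 3 kb of gene ends and the count without the peak at the end of CYP8B1 were chosen after seeing the data. H3K27ac regions lay within 1 kb of a gene end at 3 genes in each list. AhR peaks numbered 71, and 31 in the 10 kb window, 32 by nearest gene and 42 when merged. C/EBPα peaks numbered 35 in the 10 kb window and 34 by nearest gene. H3K27ac regions were 42 in each list in the 10 kb window, and 44 in the inhibitor and 45 in the untreated list by nearest gene. Overlap of AhR peaks with C/EBPα came to 54.8% in the 10 kb window and 78.6% for merged peaks. The share with H3K27ac was 48.4% in the 10 kb window, 53.1% for peaks nearest to the member and 87.2% beyond 3 kb of gene ends. The share with both was 22.6%, 31.2% and 59.6% in these settings. Identical H3K27ac regions numbered 41 of 42 in the 10 kb window. Narrower windows hold fewer peaks by construction, and for the shares the cause was not tested. Other overlap rules and the inhibitor list kept each share inside its interval. The H3K27ac lists are not taken as independent, so the inhibitor list is not a separate check.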
